A study of Mastomys natalensis with 3 samples.

Results

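Transcripts of 9 lysosomal genes were followed across 3 Affymetrix rat arrays hybridised with stomach RNA of Mastomys natalensis, a rodent species of Africa in which gastric carcinoids arise. The genes encode the membrane proteins Cd63, Lamp1 and Lamp2, the proteases cathepsin B, C, D, H and L (Ctsb, Ctsc, Ctsd, Ctsh and Ctsl) and prosaposin (Psap). All probe sets to which the platform annotation gives one of these symbols were taken, 19 of the 8799 on the array, and stand for 9 of 4736 named genes. The genes were chosen on a measured value, Cd63 reading far lowest on the 8-week array, so the Cd63 differences are given as a description.

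The first sample came from animals that had spontaneously developed a carcinoid of enterochromaffin-like (ECL) cells, which store histamine and release it to drive acid secretion. The others came from animals given loxtidine, a blocker of the histamine receptor on parietal cells, for 16 weeks and for 8 weeks. All 3 descriptions give cells enriched for ECL cells from gastric mucosa, but the source field names ECL cells at 8 weeks and gastric mucosa for the other arrays. The sources used here give no strain, age, sex or number of animals, and untreated normal mucosa was not analysed here. Each group had 1 array, so no difference below has a replicate check, an error over animals or a p-value.

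Lysosomes are the acidic compartments in which cells degrade proteins, lipids and glycans. Newly made cathepsins and prosaposin are delivered there through the secretory pathway, while Lamp1 and Lamp2 line the lysosomal membrane. In cells that store secretory products, lysosome-related organelles and granules carry some of the same membrane proteins, and the tetraspanin Cd63 is one of them.

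Values are intensities after quantile normalization of the 3 arrays, in arbitrary units. The floor, 12.4, was the pooled median of all probe sets other than controls, and lower values were raised to it before folds were taken. A fold against an array below the floor is therefore a bound, written "at least". Of the 19 probe sets, 16 reached the floor on at least 1 array, 10 on all 3, and 3 on none. The 16 covered 8 genes. No Ctsb value reached the floor. Of the 19, 5 in carcinoid, 9 at 16 weeks and 5 at 8 weeks reached the 75th percentile of all values, 30.0. The share of all values at that level is set by its definition, so nothing is read from these counts.

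Facts of the arrays that touch these values are few. Of 38 control probe sets taken from their names to lack a target here, 9, 9 and 8 reached the floor on the carcinoid, 16-week and 8-week arrays, and 3, 0 and 5 reached 30.0. Values near the floor, and many of those below about 30.0, therefore cannot be safely told from background. The ratio of the 3' to the 5' control of GAPDH was 2.31, 1.43 and 8.95 on those arrays, and that of beta-actin 11.7, 6.71 and 16.1, so on the second control carcinoid lay nearer to 8 weeks. The deposited 5' signal was dimmest on the 8-week array for both, at 344, 364 and 37.3 for GAPDH and 196, 219 and 47.8 for beta-actin. So was the deposited 3' signal, at 793, 520.4 and 334 for GAPDH and 2301, 1467 and 767 for beta-actin. The labels also give every array a different lot, and lot and group cannot be told apart. Among ECL and other neuroendocrine markers, 6, 7 and 8 of the 12 genes with a probe set reached the floor on the carcinoid, 16-week and 8-week arrays. Hdc, the histamine-forming enzyme, was below it on each, so this defining ECL marker did not bear out the label. Whether the rat Hdc probe set meets the Mastomys transcript was not tested. The brightest sets of the transporter gene Slc18a2 (23.2, 42.3 and 21.8) and the gastrin receptor gene Cckbr (35.2, 56.5 and 74.3) reached it on every array. The second Slc18a2 set was below it on every array, and the second Cckbr set reached it only at 16 weeks (33.4). Parietal cell markers reached the floor for 7, 6 and 5 of 10 genes and chief cell markers for 3 of 4 on every array. The floor is the pooled median, so many genes of any kind reach it. The share of all genes at the floor was not computed per array. Nothing about cell content is read from marker counts at the floor, here or below.

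**Figure D1:**
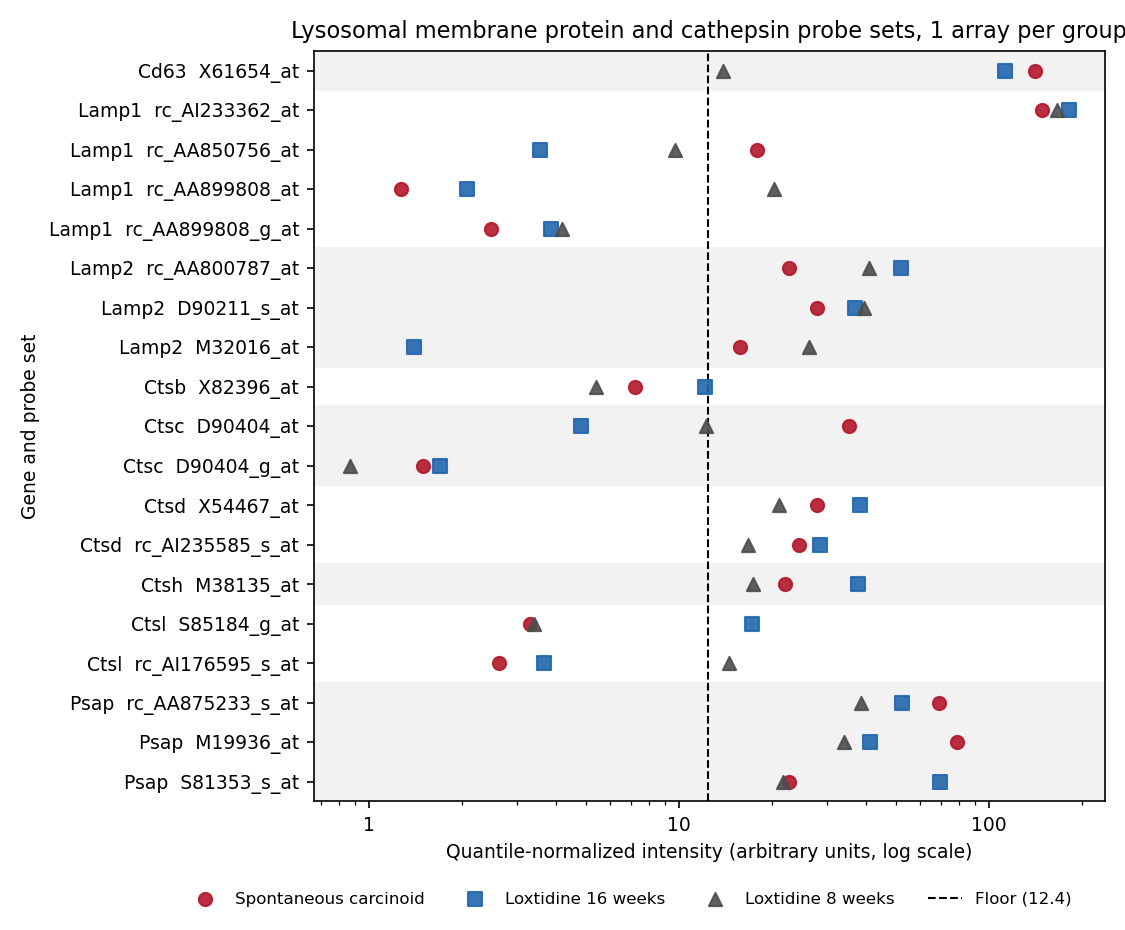
Quantile-normalized intensity (horizontal, log scale, arbitrary units) of each of the 19 probe sets (rows), with 1 point per array and the floor of 12.4 as a dashed line. Cd63 stands at 141 and 113 on the carcinoid and 16-week arrays and at 13.9 on the 8-week array, whereas the brightest Lamp1 probe set lies between 148 and 181 on all 3.

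The membrane proteins did not share a pattern. Cd63, which shuttles between late endosomes, lysosomes and granules, was represented by 1 probe set, X61654_at, made from an mRNA sequence. It read 141 on the carcinoid array and 113 on the 16-week array, against 13.9 on the 8-week array. The carcinoid and 16-week arrays thus lay far above the 8-week value, which stood just above the floor, and they differed from each other by 1.25-fold. Relative to 8 weeks Cd63 was 10.2-fold higher in carcinoid and 8.14-fold higher at 16 weeks. In the intensities as deposited Cd63 read 174, 120.3 and 11.3 on the carcinoid, 16-week and 8-week arrays. The last of these was below the floor of 12.2 for unnormalized values, so the folds became at least 14.2 (carcinoid) and at least 9.86 (16 weeks) over 8 weeks. With the floor at 30.0 the normalized differences were at least 2.23 and at least 1.91 on the log2 scale.

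No second Cd63 probe set was there to set beside this one. The difference ran the same way as the dim 5' and 3' controls of the 8-week array, and the part of RNA quality in it was not tested. Fewer cells of a type and less RNA per cell cannot be told apart in such samples either. The genes whose pattern over the 3 arrays was most like that of Cd63, among 1746 genes at or above the floor on every array, were the mucin gene Muc5ac, the glycolytic enzyme gene Aldoa, Itm2b, the ATP synthase subunit gene Atp5po and the ubiquitin-conjugating enzyme gene Cdc34. Their distances from Cd63, taken over the log2 differences of carcinoid and of 16 weeks from 8 weeks, were 0.55, 0.57, 0.80, 0.80 and 0.90. None of these 5 is a lysosomal gene of the lists used here.

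Lamp1, one of the most abundant glycoproteins of the lysosomal membrane, was nearly level on its brightest probe set. This set, rc_AI233362_at, read 148 in carcinoid, 181 at 16 weeks and 166 at 8 weeks, so the 3 arrays lay within 1.22-fold of each other. Its differences of -0.17 (carcinoid minus 8 weeks) and 0.12 (16 minus 8 weeks) on the log2 scale were smaller than the spread between probe sets of one gene, 0.82 and 0.79. The order of the arrays hung on the scaling: carcinoid stood above 8 weeks by 0.67 on the log2 scale as deposited and by 0.22 with arrays scaled to a common median. Of the other Lamp1 probe sets, rc_AA850756_at reached the floor only in carcinoid (17.8) and rc_AA899808_at only at 8 weeks (20.3). The last, rc_AA899808_g_at, was below the floor throughout.

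Lamp2, the related membrane protein that also serves as receptor in chaperone-mediated autophagy, was lowest in carcinoid on 2 of its 3 probe sets after normalization. The probe set rc_AA800787_at, made from an expressed sequence tag, read 22.6 in carcinoid and 52.1 at 16 weeks, against 41.1 at 8 weeks. For D90211_s_at the values were 27.8 in carcinoid and 37.0 at 16 weeks, against 39.5 at 8 weeks. Carcinoid was thus 2.31-fold and 1.33-fold below 16 weeks, and 1.82-fold and 1.42-fold below 8 weeks. As deposited, D90211_s_at was level between carcinoid (31.0) and 8 weeks (30.9), so its difference from 8 weeks came with the normalization, and carcinoid was lowest on rc_AA800787_at alone (25.2 in carcinoid and 56.0 at 16 weeks, against 32.1 at 8 weeks). The third set, M32016_at, read 15.7 in carcinoid, 1.40 at 16 weeks and 26.3 at 8 weeks. It placed the 16-week array and not carcinoid lowest, at least 2.12-fold below 8 weeks, while carcinoid was again below 8 weeks, by 1.67-fold.

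Among the cathepsins of the 9 genes, only Ctsd and Ctsh were at or above the floor on all 3 arrays, and both stood highest at 16 weeks. Cathepsin D is the main aspartic protease of lysosomes. Its probe set X54467_at read 27.8 in carcinoid and 38.5 at 16 weeks, against 21.0 at 8 weeks. The second set, rc_AI235585_s_at, read 24.4 in carcinoid and 28.5 at 16 weeks, against 16.7 at 8 weeks. Both sets gave the order 16 weeks, carcinoid, 8 weeks, with 16 weeks 1.83-fold and 1.71-fold and carcinoid 1.33-fold and 1.46-fold above 8 weeks. Their log2 differences lay within 0.24 of each other in every comparison, against gaps of up to 0.79 for Lamp2, bounds left out, and 2.55 for Psap. The differences from 8 weeks were 0.88 and 0.77 at 16 weeks, close to the general spread between probe sets of one gene (0.79), and 0.41 and 0.55 in carcinoid, below that spread (0.82).

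Cathepsin H, a cysteine protease with aminopeptidase activity, followed the same order on its single probe set, M38135_at. It read 22.0 in carcinoid and 37.9 at 16 weeks, against 17.4 at 8 weeks. That put 16 weeks 2.18-fold above 8 weeks, and carcinoid 1.27-fold above 8 weeks and 1.72-fold below 16 weeks. Ctsh was just past 2-fold, whereas Ctsd at 1.83-fold was just short of it.

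The other cathepsins of the 9 genes lay at the edge of measurement. Cathepsin C, also called dipeptidyl peptidase 1, activates serine proteases of immune cell granules. Its probe set D90404_at read 35.5 in carcinoid, 4.83 at 16 weeks and 12.2 at 8 weeks, so that only carcinoid reached the floor, at least 2.86-fold above each of the others. The 8-week value missed the floor narrowly, and a second probe set from the same sequence, D90404_g_at, was at 1.70 or less on all 3 arrays. Cathepsin L, a cysteine endopeptidase, had 2 probe sets that disagreed. S85184_g_at reached the floor only at 16 weeks (17.2, against 3.40 at 8 weeks) and rc_AI176595_s_at only at 8 weeks (14.5, against 3.67 at 16 weeks), and in carcinoid they read 3.30 and 2.63. Cathepsin B, another cysteine protease, read 7.20 in carcinoid, 12.1 at 16 weeks and 5.40 at 8 weeks, all below the floor, and no fold is given.

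Prosaposin, the precursor that is cleaved to the saposins needed for sphingolipid breakdown, was lowest at 8 weeks on each of its 3 probe sets. The set rc_AA875233_s_at read 68.8 in carcinoid and 52.3 at 16 weeks, against 38.6 at 8 weeks. For M19936_at the values were 78.8 in carcinoid and 41.3 at 16 weeks, against 34.2 at 8 weeks. These 2 sets placed carcinoid highest, 1.78-fold and 2.31-fold above 8 weeks. The third, S81353_s_at, placed 16 weeks highest instead, at 69.6, with 22.7 in carcinoid and 21.6 at 8 weeks. Carcinoid was therefore 1.31-fold and 1.91-fold above 16 weeks on the first sets and 3.07-fold below it on the third. In the same order of sets, the log2 differences from 8 weeks were 0.44, 0.27 and 1.69 at 16 weeks. In carcinoid they were 0.83, 1.20 and 0.07. The spread between probe sets of one gene was 0.79 and 0.82 in these comparisons. The values 0.44, 0.27 and 0.07 were below it, and 0.83 was close to it. Between probe sets of one member, 17 differences could be compared with both sets measured on both arrays. Of these, 5 were over 1 apart on the log2 scale, and all 5 involved S81353_s_at. Bounds were left out, such as that of the Lamp2 set M32016_at for 16 minus 8 weeks. That bound was -1.08, against 0.34 for rc_AA800787_at, so Lamp2 sets also disagreed.

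**Figure D2:**
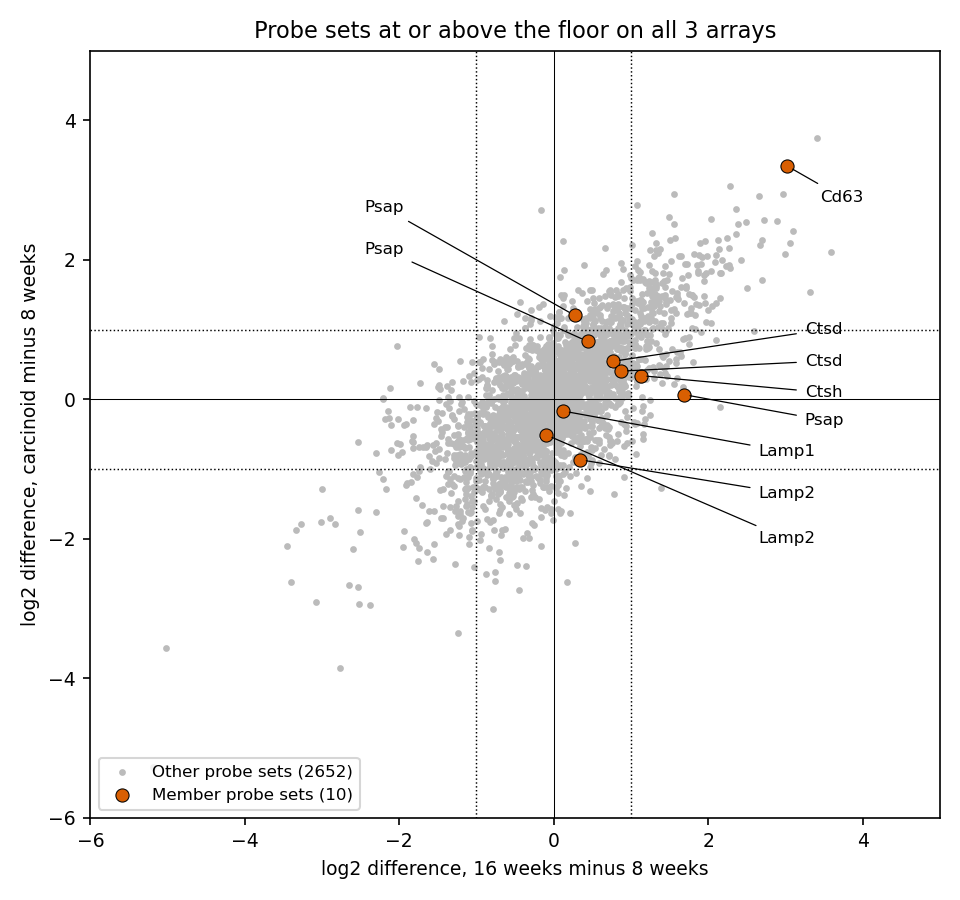
Each point is 1 of the 2662 probe sets at or above the floor on all 3 arrays, placed by its log2 difference of 16 weeks minus 8 weeks (horizontal) and of carcinoid minus 8 weeks (vertical). Dotted lines mark 2-fold, both axes share the 8-week array, and of the 10 labelled lysosomal probe sets only Cd63, at 3.03 and 3.35, lies past 2-fold on both.

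Counts of probe sets of the 9 genes at least 2-fold apart stand beside the share of all probe sets past the same fold. At 16 weeks against 8 weeks, 3 of 14 that reached the floor on either array were at least 2-fold higher (Cd63, Ctsh and the Psap set S81353_s_at) and 1 was lower (the Lamp2 set M32016_at). Over all probe sets 13.9% were higher and 13.0% lower. In carcinoid against 8 weeks, 3 of 15 were higher (Cd63, Ctsc and the Psap set M19936_at) and 0 lower, beside 14.6% and 14.0% of all. In carcinoid against 16 weeks, 1 of 14 was higher (Ctsc) and 2 were lower (the Lamp2 set rc_AA800787_at and the Psap set S81353_s_at), beside 9.38% and 9.67%. Cd63 was the only one of 16 at least 2-fold below both other arrays at 8 weeks, a pattern held by 6.72% of all probe sets, and 0 were as far above both, beside 6.71%. Cd63 at 8 weeks was the reason for the choice of genes, so nothing is read from its share in these counts. In the intensities as deposited, all probe sets together stood higher by a median log2 ratio of 0.42 at 16 weeks and 0.45 in carcinoid than at 8 weeks, and by 0.06 in carcinoid than at 16 weeks. On that scale 5 member sets were higher and 0 lower at 16 against 8 weeks, beside 21.8% and 6.38% of all. For carcinoid against 8 weeks the counts were 4 and 0, beside 25.8% and 6.04%, and against 16 weeks they were 2 and 2, beside 12.2% and 9.62%. Below both others at 8 weeks was 1, Cd63, and above both 0, beside 11.1% and 2.60%. The share of higher among all 2-fold differences was then 77.4%, against 51.7% after normalization, and in carcinoid against 8 weeks 81.1%, against 51.2%.

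Without regard to size, 6 of the 16 probe sets had their lowest value in carcinoid, 3 at 16 weeks and 7 at 8 weeks, beside 33.2%, 30.5% and 36.3% of all probe sets that reached the floor. As deposited the counts were 3, 3 and 10, beside 24.6%, 24.6% and 50.8%. The median log2 difference over the probe sets that reached the floor was 0.39 for 16 minus 8 weeks, 0.34 for carcinoid minus 8 weeks and -0.26 for carcinoid minus 16 weeks. The corresponding medians over all probe sets were -0.01, -0.03 and 0.01. The member counts and medians include Cd63, whose low 8-week value was the reason for the choice of genes. Both take several probe sets of some genes, and the medians mix bounds with measured differences. Nothing is therefore read from them.

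Other genes of the lysosome and its neighbours were taken from lists of other lysosomal proteases, protease inhibitors, hydrolases, membrane proteins, the proton pump, sorting factors and tetraspanins. Of 184 genes listed, 58 had a probe set, and 1 probe set per gene, the brightest, was used. At 16 weeks against 8 weeks, 6 of 47 were at least 2-fold higher and 4 lower, beside 14.0% and 12.9% of all genes. In carcinoid against 8 weeks, 10 of 45 were higher and 6 lower, beside 14.6% and 13.7%. In carcinoid against 16 weeks, 3 of 47 were higher and 5 lower, beside 9.41% and 9.29%. The median log2 differences were 0.02, -0.26 and 0.02.

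**Figure D3:**
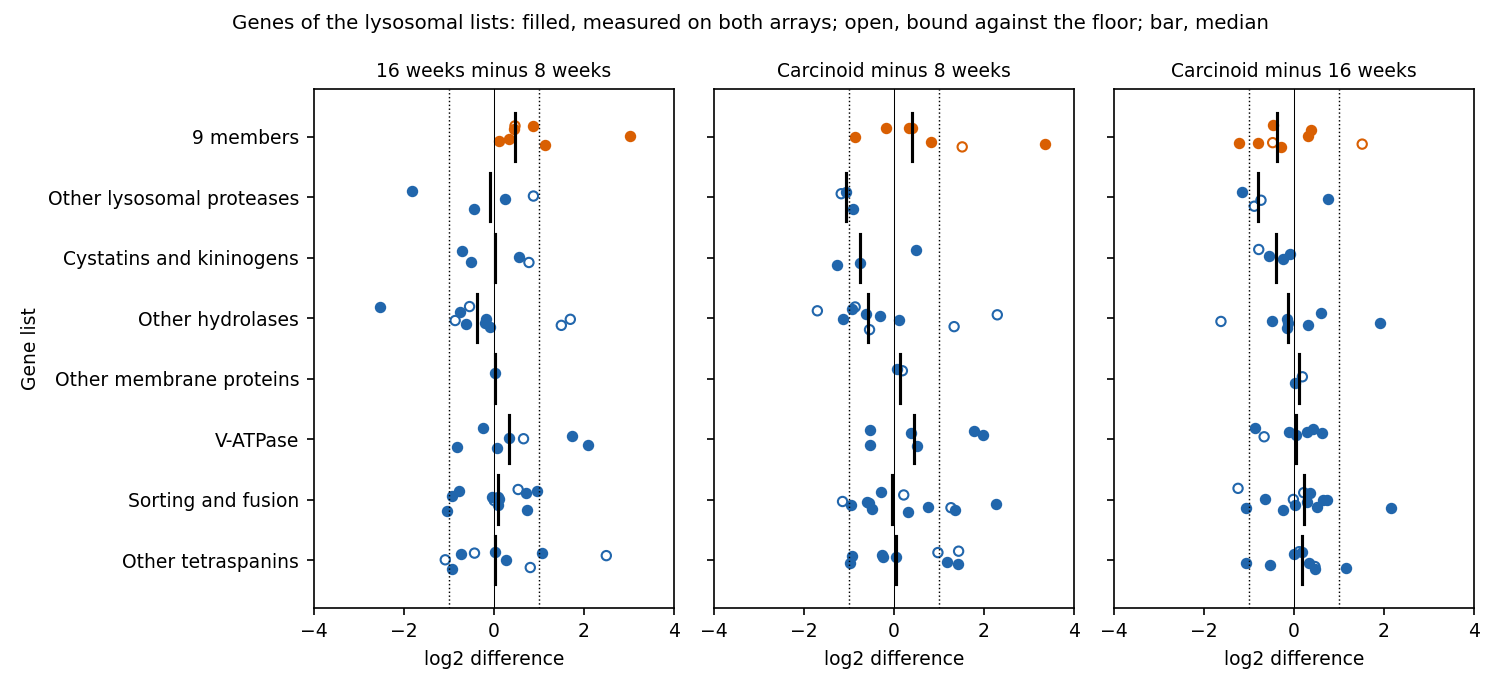
Log2 difference (horizontal) of each gene at or above the floor on at least 1 array of the pair, by gene list (rows) and comparison (panels), with 1 probe set per gene. Points of most lists lie on both sides of 0. The member median for 16 minus 8 weeks, 0.47, is the Ctsl value, a bound. The members include Cd63, on which they were chosen. In carcinoid minus 8 weeks the other proteases have a median of -1.06 over 3 genes, which is the Ctss value (-0.54 as deposited).

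At least 2-fold below both other arrays at 8 weeks, like Cd63, were 6 of 49 of these genes, beside 7.14% of all genes. A pair of them encode subunits of the V-ATPase, the pump that acidifies lysosomes and granules. Atp6v0a1 read 51.1 in carcinoid and 55.3 at 16 weeks, against 13.0 at 8 weeks, and its second probe set ran the same way (28.0 and 39.1, against 3.55). Atp6v1f read 83.6 in carcinoid and 81.0 at 16 weeks, against 24.4 at 8 weeks. Not all of the pump did so: the brightest set of the membrane subunit gene Atp6v0c read 201 in carcinoid and 164 at 16 weeks, against 289.6 at 8 weeks, and its second set ran the other way. For the 16-week and 8-week arrays, 7 V-ATPase genes reached the floor on either array, with Atp6v1b2 giving only a bound. Of these, Atp6v0a1 and Atp6v1f alone passed 2-fold, both with the larger value at 16 weeks. Among all genes, 14.0% passed 2-fold in that direction and 12.9% in the other. With so few V-ATPase genes, nothing is read from their count.

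The remaining 4 were hydrolases and tetraspanins. Acp2, the lysosomal acid phosphatase, read 61.0 in carcinoid and 40.4 at 16 weeks, against 11.1 at 8 weeks. Fuca1, the enzyme that removes fucose from glycoproteins, read 31.5 in carcinoid and 35.0 at 16 weeks, against 10.6 at 8 weeks. Both were below the floor at 8 weeks, so their folds are bounds, at least 4.92-fold and 2.54-fold in carcinoid. Among relatives of Cd63, Cd9 read 33.6 in carcinoid and 70.4 at 16 weeks, against 9.05 at 8 weeks, and Tspan3 72.8 and 57.4, against 27.3. The second Cd9 set showed a smaller difference in the same direction (36.6 and 24.3, against 20.6).

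The other tetraspanins were mixed. Rom1, a tetraspanin known from photoreceptors, read 24.5 in carcinoid and 21.7 at 16 weeks, against 5.40 at 8 weeks, the same direction as Cd63, with folds of at least 1.98 and at least 1.75. Cd81 read 54.2 in carcinoid and 53.8 at 16 weeks, against 104 at 8 weeks, and was level on its second probe set (42.8 and 46.4, against 41.3). The brightest set of Cd82 was 2.28-fold higher in carcinoid than at 8 weeks and 1.01-fold higher at 16 weeks, while the second stood at 25.2 and 38.6 in carcinoid and at 16 weeks, against 4.03 at 8 weeks, and so was at least 2-fold below both at 8 weeks. Scarb2, a lysosomal membrane protein that carries glucocerebrosidase, was level on its brightest set at 36.9, 36.0 and 35.2 in carcinoid, at 16 weeks and at 8 weeks. The second Scarb2 set reached the floor only at 16 weeks (30.9).

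Of the proteases outside the 9, cathepsin S (Ctss), an enzyme of antigen-presenting cells, was the only one of these 49 genes at least 2-fold above both other arrays at 8 weeks, beside 6.26% of all genes. It read 22.2 in carcinoid and 13.1 at 16 weeks, against 46.5 at 8 weeks. As deposited or with median scaling it was not 2-fold above both. After normalization, 6 of the 7 macrophage markers with a probe set were highest at 8 weeks, and as deposited 3 were. The share of all genes highest at 8 weeks was not computed, so nothing is read from these counts. The summed level of the macrophage markers, over the 7 of 19 listed genes with a probe set, was 150.1 in carcinoid and 151 at 16 weeks, against 315 at 8 weeks. Of the 7, 5, 4 and 6 were at the floor. As deposited the sums were 170.4 and 162, against 239. C1qb, a complement subunit gene, alone read 17.6 and 3.90, against 67.1, as deposited. Its second probe set, from the same sequence, was at background on every array (2.70 and 2.80, against 2.80). Csf1r, a defining macrophage receptor, was below the floor at 16 and 8 weeks, and the part of macrophages in the Ctss difference was not tested. Cathepsin E (Ctse), an aspartic protease of gastric surface epithelium, read 14.3 in carcinoid and 31.8 at 16 weeks, against 26.7 at 8 weeks.

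Among inhibitors of cysteine cathepsins, cystatin C (Cst3) had 2 probe sets from the same sequence that differed. The brighter read 81.5 in carcinoid and 86.1 at 16 weeks, against 57.8 at 8 weeks, and the other read 15.8 in carcinoid and 60.4 at 16 weeks, against 67.7 at 8 weeks. Cystatin B (Cstb) was 2.39-fold lower in carcinoid than at 8 weeks on its brightest set (22.6 against 53.9), whereas the other set read 16.7 in carcinoid against 5.07 at 8 weeks. Igf2r, the receptor that sorts mannose 6-phosphate-tagged enzymes to lysosomes, did not rise clear of the floor on any array, at 11.8, 12.4 and 7.17 in carcinoid, at 16 weeks and at 8 weeks.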

How the data were processed

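RNA of 3 samples was measured on Affymetrix rat arrays, 1 array per group, and groups were taken from the sample descriptions. The authors deposited 1 linear intensity per probe set and array. How it was summarised, corrected for background and scaled is not given in the sources used here. The intensity carries no depth. Because rat probes met Mastomys RNA, each probe set was compared only with itself across arrays. Median deposited intensities of 13.9, 13.1 and 10.2 (carcinoid, 16 weeks, 8 weeks) were made alike by quantile normalization over all 8799 probe sets, which hides a shift shared by most transcripts. Of 8740 probe sets without the 59 controls, 7006 carried 1 symbol in the platform annotation, for 4736 genes, and only these were named. For 1 value per gene, the probe set brightest on average as deposited was taken.

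A difference counted when it was at least 2-fold after raising values to the floor, bounds included. The percentages over all probe sets or genes use the same rule. With 1 array per group, no significance test was run. The spread between probe sets was the root mean square difference of 1 pair per gene divided by the square root of 2, and holds no variation between animals. The members and the lists were chosen with earlier results of these data known. Named outside the 9 members were, per list, up to 4 genes each way at least 2-fold below or above both other arrays at 8 weeks, a fixed set (Ctse, Ctss, Cst3, Cstb, Scarb2, Igf2r, Cd9, Cd81 and Cd82, with Cd68 and M6pr not analysed here), and the 5 genes nearest to Cd63. Atp6v0c, Rom1, C1qb, Csf1r, Slc18a2 and Cckbr were named after their values were seen. Mast and mucous cell marker lists were also tallied, with 4, 6 and 5 of 10 and 5, 5 and 5 of 5 genes at the floor on the carcinoid, 16-week and 8-week arrays. Alternatives were the values as deposited, median scaling, floors at the 25th (4.2) and 75th (30.0) percentiles, log2 of the value plus the floor, 1 probe set per gene or the median of a gene's probe sets, expressed sequence tag (EST) probe sets only, and probe sets without a cross-reaction suffix. Normalization without the 8-week array was added after seeing the data. The steps were tested on simulated data. Python 3.11.15, numpy 2.4.6 and pandas 2.3.3 were used.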

Additional observations from a re-analysis of the deposited data

How the results depend on the processing

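No paired analysis was possible because each group had 1 array. The number of arrays and the nearness of most member values to background limit every value, and the cause of the shifts below was not tested beyond what each setting does by construction. Cd63 stayed at least 2-fold below both other arrays at 8 weeks under every setting that kept its probe set. No share of all probe sets was computed at the changed floors, with log2 of the value plus the floor, or for the EST and suffix-free sets. Counts at those settings, here and for the other lysosomal genes, are therefore not read as results about the genes. The counts that follow here are probe sets of the 9 genes at least 2-fold apart. As deposited, 5 were higher and 0 lower at 16 against 8 weeks, beside 21.8% and 6.38% of all probe sets. In carcinoid against 16 weeks 2 were higher, beside 12.2%. With the floor at 4.2, 5 were higher and 5 lower at 16 against 8 weeks, 2 lower in carcinoid against 8 weeks, 3 higher in carcinoid against 16 weeks, and 2 above both others at 8 weeks. With the floor at 30.0, 0 were lower at 16 against 8 weeks, and 0 higher and 1 lower in carcinoid against 16 weeks. With log2 of the value plus the floor, 2 were lower at 16 against 8 weeks, 1 higher and 1 lower in carcinoid against 8 weeks, 2 higher and 1 lower in carcinoid against 16 weeks, and 1 above both others at 8 weeks. With 1 probe set per gene, 0 were lower at 16 against 8 weeks, beside 12.9% of all genes. In carcinoid against 16 weeks 1 was then lower, beside 9.29%. Without cross-reaction suffixes, 1 was lower in carcinoid against 16 weeks. EST probe sets, which include none for Cd63, left 0 higher and 0 lower at 16 against 8 weeks, 0 higher in carcinoid against 8 weeks, 0 higher and 1 lower in carcinoid against 16 weeks, and 0 below both others at 8 weeks. Median scaling, and normalization without the 8-week array (carcinoid against 16 weeks, chosen after seeing the data), left the member counts as reported.

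For the other lysosomal and related genes, the counts that moved by over 1.5 times at 16 against 8 weeks were 10 higher and 2 lower as deposited, 10 lower with the floor at 4.2, 2 higher and 1 lower with it at 30.0, and 2 higher and 1 lower with EST probe sets. In carcinoid against 8 weeks they were 1 lower as deposited, 11 lower with the floor at 4.2, 5 higher and 0 lower with it at 30.0, 3 lower with log2 of the value plus the floor and 4 higher with EST probe sets. In carcinoid against 16 weeks they were 3 lower as deposited, 8 higher and 9 lower with the floor at 4.2, 2 lower with it at 30.0, 3 lower with log2 of the value plus the floor, 2 lower with EST probe sets and 2 lower without cross-reaction suffixes. At 8 weeks, 1 lay below both others with the floor at 30.0 and 2 with EST probe sets, and 5 lay above both with the floor at 4.2 and 0 as deposited, with median scaling, with the floor at 30.0, with log2 of the value plus the floor and with EST probe sets. Of 130 log2 differences of member genes over all settings, 5 had the other sign, all of Lamp1 or Lamp2 and none past 2-fold. Ctsb could be compared with the floor at 4.2, where it was 2.25-fold higher at 16 than at 8 weeks and 1.33-fold higher in carcinoid than at 8 weeks.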
